A study of Mus musculus with 8 samples.

Results

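Libraries from organs of Corti of newborn mice held RNA of all 37 genes described here, which are the tubulins and the proteins that bind microtubules. They were taken by symbol from a list of tubulin genes and microtubule-binding proteins named for their place in the cytoskeleton of pillar and Deiters cells, and they are 37 of the 41079 genes counted. The list goes by gene family and uses no measured value as a criterion, although it was drawn up with earlier results of these data known, and it holds 5 alpha-tubulins, 7 beta-tubulins, 4 gamma-, delta- and epsilon-tubulins, 10 proteins that bind along the lattice, 2 members of the doublecortin family, 6 plus-end proteins and 3 minus-end proteins. No member passed the test between genotypes in either direction. Tuba1a, Tuba1b and Tubb5 had the highest levels per length, and the shares of the alpha-tubulin genes were nearly the same in every library. Mapt, Tubb3, Dcx and Map6, which are rich in neurons, differed up to 2.27-fold between libraries of the same genotype, more than any of them differed between the group means.

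RNA was sequenced from organs of Corti, the hearing epithelium in the cochlea, dissected at postnatal day 0 (P0). One group was 4 libraries labelled Prox1 knockout, with Cre recombinase expressed from Emx2 acting on a floxed Prox1 allele, and the other was 4 wildtype libraries at the same age. Whether the wildtype mice carried the floxed allele or Cre, how many animals went into a library and whether libraries came from separate animals is not stated in the labels, so the p-values speak only of the spread among these libraries, which may be technical. Levels are given as CPM, which are counts scaled to a common library size. Prox1, the transcription factor that was targeted, had 147, 137, 138 and 134 CPM in the libraries labelled knockout, against 109, 114, 106 and 115 CPM in wildtype. Prox1 was therefore higher in every library labelled knockout (log2 fold change 0.33 ± 0.05 SE, 95% interval 0.22 to 0.43, adjusted p 0.0298 by edgeR's quasi-likelihood test), which goes against the label, so directions below are those of the libraries as labelled. Whole-gene counts do not tell whether the floxed segment was deleted.

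Libraries held 29908965 to 32613549 counts when labelled knockout and 32863533 to 42318233 counts when wildtype. All 37 members passed the filter on low counts, with 120 to 36379 counts per library for 36 of them, and Tuba8, at 2 to 18 counts, was the only one near the limit. Markers of the tissue were present in all 8 libraries. Summed CPM of 10 hair cell markers were 607 to 633 in the libraries labelled knockout and 593 to 696 in wildtype, and those of 5 pillar cell markers were 255 to 272 and 267 to 279 in the same order. Those of 6 markers of the mesenchyme around the cochlea were 5066 to 6087 and 6167 to 7238, and those of 5 red cell markers 1424 to 2577 and 1773 to 4056. The levels below are of this mixed tissue and cannot be assigned to pillar or Deiters cells. The pillar cell markers did not move together. Hey2 was at 25.3 to 30.4 CPM in the knockout-labelled libraries and 20.1 to 21.9 CPM in wildtype (adjusted p 0.0738 by edgeR), while Fgfr3, which Deiters cells share, was at 84.4 to 95.8 CPM and 96.9 to 101 CPM (adjusted p 0.622), and no marker of the list passed.

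Microtubules are hollow polymers of alpha- and beta-tubulin dimers, with a fast-growing plus end and a minus end that is often anchored on gamma-tubulin. In pillar and Deiters cells of the organ of Corti, long parallel bundles of microtubules run the height of the cell and stiffen it, and hair cells and the nerve fibres that reach them hold microtubules as well. Tubulin genes encode nearly the same protein along most of its length, and differ most in the C-terminal tail, where many modifying enzymes and binding proteins act.

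The coding ends of several beta-tubulins are shown because the tail is where the family varies most as proteins, and because the near-identical ends bear on how reads are assigned. The sequences are those of GENCODE M21 transcripts on the build GRCm38, written 5′ to 3′ on the coding strand and ending with the stop codon. Among the alpha-tubulins on chromosome 15, identity over the whole coding sequence was 98.3% between Tuba1a and Tuba1b, 97.1% between Tuba1a and Tuba1c and 97.9% between Tuba1b and Tuba1c. Of all 50-base stretches of their transcripts, 75.5% in Tuba1a, 83.1% in Tuba1b and 61.0% in Tuba1c also occurred in a transcript of another gene.

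Tubb2a and Tubb2b lie together on chromosome 13, and capitals mark the bases that differ between them.
Tubb2a: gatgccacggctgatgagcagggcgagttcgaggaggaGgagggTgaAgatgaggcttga
Tubb2b: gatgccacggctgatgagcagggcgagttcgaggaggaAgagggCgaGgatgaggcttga
They differed at 3 of the last 60 coding bases and were 96.5% identical over the coding sequence. The tails of other beta-tubulins are shown from the last 10 bases that Tubb3 (chromosome 8), Tubb4a (chromosome 17), Tubb4b (chromosome 2) and Tubb5 (chromosome 17) share, with the bases after these in capitals.
Tubb3: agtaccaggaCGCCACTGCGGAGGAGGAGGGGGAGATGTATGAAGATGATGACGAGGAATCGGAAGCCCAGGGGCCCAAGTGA
Tubb4a: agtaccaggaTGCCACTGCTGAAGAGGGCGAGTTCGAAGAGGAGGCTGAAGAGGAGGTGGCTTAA
Tubb4b: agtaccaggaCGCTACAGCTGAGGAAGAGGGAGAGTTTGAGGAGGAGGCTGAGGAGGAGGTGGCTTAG
Tubb5: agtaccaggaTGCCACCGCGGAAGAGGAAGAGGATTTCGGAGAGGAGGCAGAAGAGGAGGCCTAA
The tail of Tubb3 ran on for 73 bases after the shared stretch, against 55 in Tubb4a and Tubb5 and 58 in Tubb4b. Shared 50-base stretches made up 49.6% of Tubb2a, 39.3% of Tubb2b and 55.5% of Tubb4b, where 43.6% occurred in the pseudogene Tubb4b-ps1. They made up 0.115% of Tubb5, 0.184% of Tubb4a and 0% of Tubb3 and Tubb6. How reads that fit several places were counted is not given in the sources used here, so the single values of Tuba1a, Tuba1b, Tuba1c, Tubb2a, Tubb2b and Tubb4b are uncertain where reads could be split between copies. Tuba4a has the same limit, because 47.7% of its stretches also occur in Stk16, and the use of strand in counting is not given either.

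Per kilobase of exon, the level scale on which genes can be compared, a few tubulins stood far above every other member. Tuba1a, the main alpha-tubulin of developing neurons, led with a mean of 416 CPM per kb over the 8 libraries. Tuba1b, a broadly expressed alpha-tubulin, followed at 331, Tubb5, the broadly expressed beta-tubulin of dividing cells, at 254, and Tuba1c at 159.7. Tubb2b and Tubb2a, which are abundant in young neurons, were next at 93.8 and 91.9 CPM per kb, and Tubb4b, a broadly expressed beta-tubulin that is also a main one of cilia, at 55.7. The highest member that is not a tubulin was Map1b at 28.7 CPM per kb, close to Map7d1 at 25.4, Mapre1 at 25.1 and Map4 at 24.4. Tubb3, the beta-tubulin used as a neuron marker, and Tubb4a each stood at 23.2. At the low end were Map6 at 1.86, Tube1 at 0.625 and Tuba8 at 0.126 CPM per kb.

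Exon length counted over all annotated transcripts is long for genes with many isoforms, and the order below the tubulins depended on it. By the length of one transcript per gene, Map4 moved to 60.6 CPM per kb and Map2 to 34.1, and Mapt to 27.7 in place of 8.27. The first 7 places were held by the same tubulins in the same order on both scales, with Tubb4b at 72.7 just above Map4 on the second. Per-kb levels of long genes are therefore approximate, while comparisons between libraries of 1 gene do not depend on length.

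**Figure D1:**
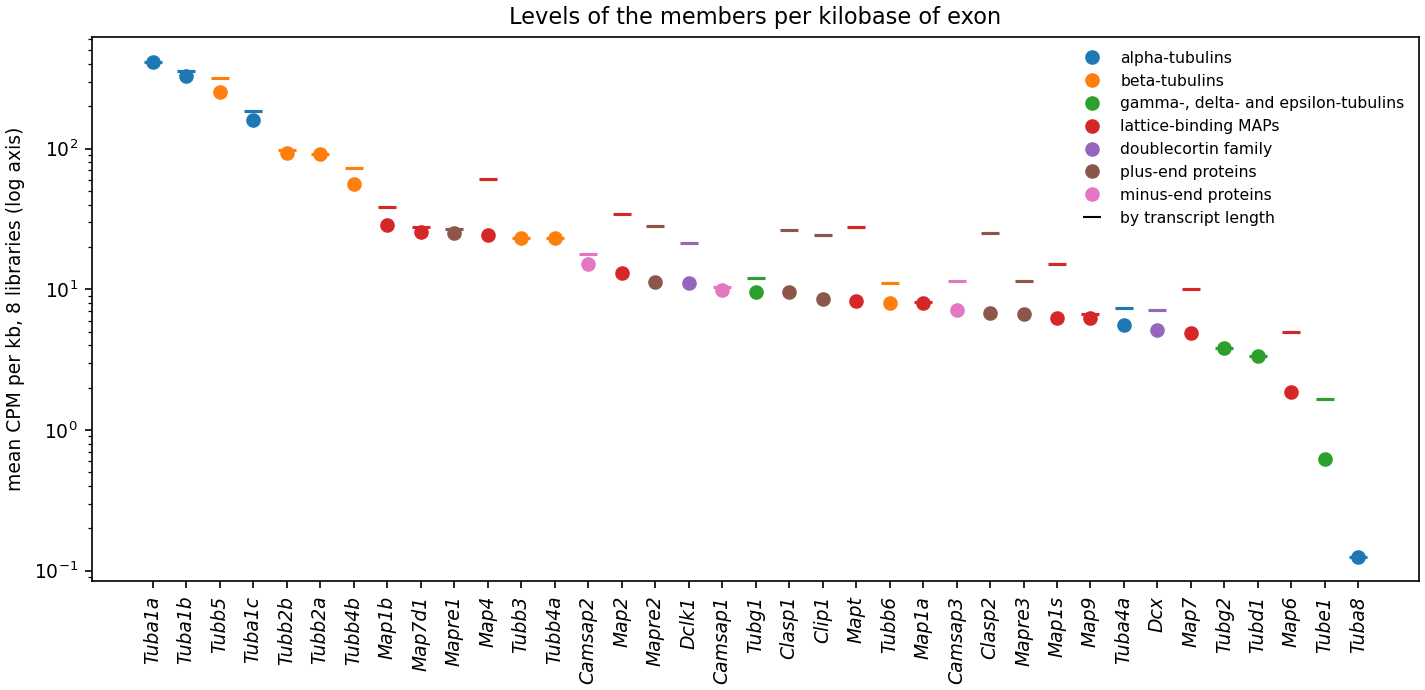
Mean level of each of the 37 members in CPM per kb over the 8 libraries on a log axis, with dots for the length of all annotated exons and dashes for the length of one transcript, coloured by role. The 7 leading genes are tubulins, from Tuba1a at 416 to Tubb4b at 55.7 CPM per kb, and Tuba8 is last at 0.126.

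The alpha-tubulins had log2 fold changes just below 0 in the libraries labelled knockout, and none passed the test. Tuba1a had 768, 659, 695 and 771 CPM in the libraries labelled knockout, against 843, 733, 755 and 781 CPM in wildtype. Its groups overlapped, with wildtype library 1 highest and knockout-labelled library 2 lowest, and the group means were close (log2 fold change -0.11 ± 0.07 SE, 95% interval -0.26 to 0.05). Tuba1b had 624, 543, 551 and 661 CPM in the libraries labelled knockout, against 696, 608, 640.0 and 642 CPM in wildtype (log2 fold change -0.12 ± 0.07 SE, 95% interval -0.28 to 0.04). Tuba1c, which had the smallest p of the alpha-tubulins, had 360.0, 323, 338 and 377 CPM in the libraries labelled knockout, against 408, 357, 378 and 382 CPM in wildtype. In Tuba1b and Tuba1c too the same wildtype library was highest and the same knockout-labelled library lowest, and knockout-labelled library 4 lay among the wildtype values. The adjusted p was 0.691 for Tuba1a, 0.671 for Tuba1b and 0.647 for Tuba1c (log2 fold change -0.13 ± 0.06 SE, 95% interval -0.26 to 0.01) by edgeR's quasi-likelihood test.

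Tuba4a, an alpha-tubulin whose gene does not encode the terminal tyrosine of most alpha-tubulins, ranged over 18.7 to 21.8 CPM in the knockout-labelled libraries and 18.7 to 22.7 CPM in wildtype (log2 fold change -0.03 ± 0.08 SE). Tuba8, known mainly from testis and muscle, was close to the limit of detection, at 0.158 to 0.475 CPM in the knockout-labelled libraries and 0.0585 to 0.466 CPM in wildtype. Its interval, -1.22 to 0.98 on the log2 scale, leaves its change unmeasured at this depth.

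The mix of alpha-tubulin genes was nearly constant. Tuba1a made up 44.97 to 46.3% of the alpha-tubulin CPM per kb in the libraries labelled knockout and 44.996 to 45.7% in wildtype. The share of Tuba1b was 35.3 to 37.1% and 36.1 to 36.7% in the same order of groups, and that of Tuba1c 17.1 to 17.8% and 17.4 to 17.7%. Together these genes held 99.3 to 99.5% of it in every library. The shares rest on the authors' assignment of reads among near-identical copies.

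The beta-tubulins also had log2 fold changes below 0, and none passed the test. Tubb5 had 829.6, 739.6, 786 and 905 CPM in the libraries labelled knockout, against 941, 819.8, 916 and 836 CPM in wildtype. Here knockout-labelled library 4 was above wildtype libraries 2 and 4, so the groups overlapped (log2 fold change -0.11 ± 0.07 SE, 95% interval -0.27 to 0.06, adjusted p 0.703 by edgeR). Tubb2b had 223, 189, 201 and 215 CPM in the libraries labelled knockout, against 235, 223, 218 and 216 CPM in wildtype. Tubb2a had 150.5, 133, 135 and 153 CPM in the libraries labelled knockout, against 163, 155, 143 and 151 CPM in wildtype. For both Tubb2 genes the knockout-labelled libraries 2 and 3 were the lowest of all 8, and library 1 lay within the wildtype range, with log2 fold changes of -0.11 ± 0.06 for Tubb2b and -0.10 ± 0.06 for Tubb2a (SE). The ratio of Tubb2b to Tubb2a CPM was 1.41 to 1.49 in the libraries labelled knockout and 1.43 to 1.52 in wildtype.

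Tubb4b had the lowest log2 fold change of all 37 members. It had 105, 101, 99.3 and 126 CPM in the libraries labelled knockout, against 133, 113, 129 and 124 CPM in wildtype. Of the libraries labelled knockout, 3 lay below every wildtype library, and library 4 lay within the wildtype range. The log2 fold change was -0.21 ± 0.08 (SE, 95% interval -0.38 to -0.04), the unadjusted p was 0.0205, and after adjustment over all tested genes it was 0.620 by edgeR's quasi-likelihood test.

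Tubb3 spread more widely within each group than any other tubulin above 1 CPM. It had 53.4, 34.0, 45.6 and 33.0 CPM in the libraries labelled knockout, against 53.3, 59.96, 28.9 and 38.1 CPM in wildtype. High and low libraries were found on both sides, and the within-group SD of log2 CPM was 0.41, against 0.08 to 0.20 in the other beta-tubulins (log2 fold change -0.12 ± 0.21 SE, 95% interval -0.58 to 0.33). Tubb4a, a beta-tubulin best known from the brain, ranged over 44.4 to 54.2 CPM in the knockout-labelled libraries and 49.1 to 59.3 CPM in wildtype. Tubb6, a minor beta-tubulin, ranged over 15.5 to 22.5 CPM and 17.7 to 23.6 CPM in the same order, with log2 fold changes of -0.07 ± 0.08 for Tubb4a and -0.18 ± 0.12 for Tubb6 (SE).

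**Figure D2:**
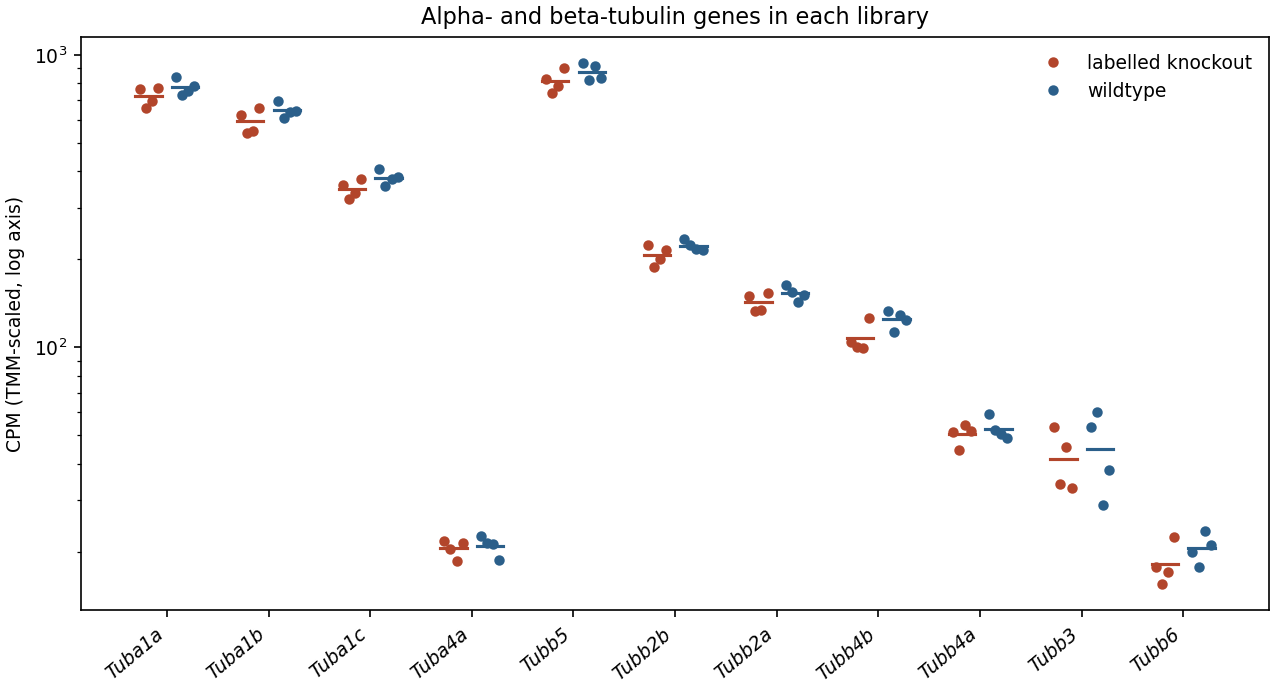
CPM of 11 of the 12 alpha- and beta-tubulin genes on a log axis, with one dot per library, the 4 libraries labelled knockout left of the 4 wildtype ones and a bar at each group's mean; Tuba8, under 1 CPM, is not drawn. The groups overlap for every gene, the means of the libraries labelled knockout lie slightly below those of wildtype, and Tubb3 has the widest spread of the genes drawn.

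All 12 alpha- and beta-tubulins had a log2 fold change below 0, with a median of -0.11, where 10290 of all 20581 tested genes were below 0. This was not particular to tubulins. All tested markers of Deiters cells, greater epithelial ridge, periotic mesenchyme and endothelium were below 0 too. So were those of macrophages, melanocytes and stria, red cells and dividing cells. In the neuron, glia, hair cell and pillar cell lists 7 of 12, 4 of 7, 7 of 10 and 3 of 5 were. Most of the 12 tubulins were high or low in the same libraries, with wildtype library 1 or knockout-labelled library 2 at an extreme. Their number therefore does not count independent observations. Their summed level was 3204, 2801, 2940 and 3338 CPM in the libraries labelled knockout, against 3574, 3161, 3302 and 3260 CPM in wildtype. The mean was 3071 ± 244 CPM in the libraries labelled knockout and 3324 ± 177 CPM in wildtype (SD, n = 4 each), and the groups overlapped, since knockout-labelled library 4 was above 3 of the 4 wildtype libraries. In bulk RNA, fewer cells that express these genes and less of their RNA per cell cannot be told apart.

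The share of counts that fell in long noncoding RNA (lncRNA) genes differed between libraries and ran almost opposite to the tubulin sum. It was 2.51, 2.77, 2.97 and 2.03% in the libraries labelled knockout, against 1.99, 2.61, 1.67 and 2.36% in wildtype. The highest lncRNA shares, in knockout-labelled libraries 2 and 3, went with the lowest tubulin sums, and knockout-labelled library 4, with a share close to that of wildtype library 1, had the highest tubulin sum of its group. With that share as a covariate in the edgeR fit, 11 of the 12 log2 fold changes were still below 0, those of 9 of these were closer to 0, and those of Tubb3 and Tuba8 were farther from it. Tuba1a then stood at -0.05, Tuba1b at -0.04, Tubb5 at -0.01 and Tubb4b at -0.09, while Tubb3 stood at -0.33 and Tuba8 at -0.39, against -0.12 for each without the covariate.

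**Figure D3:**
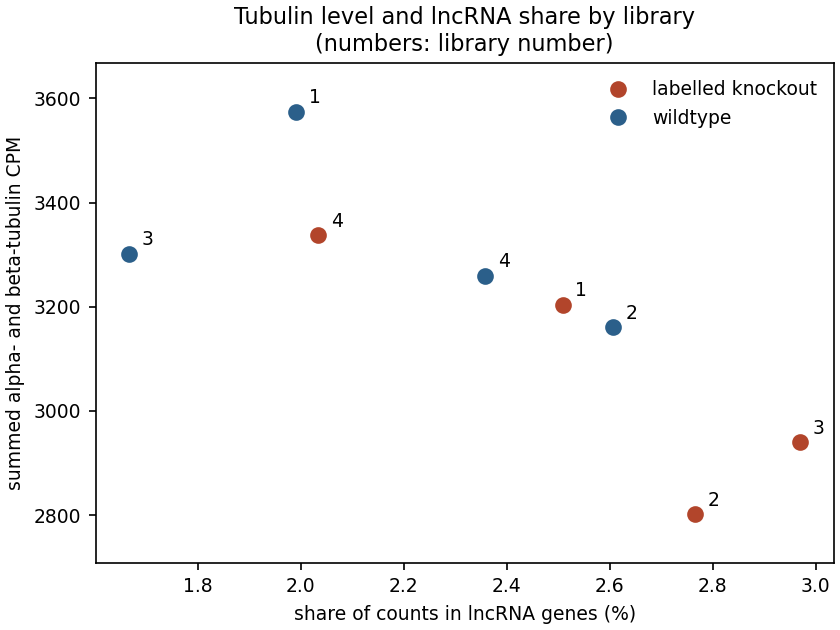
Summed CPM of the 12 alpha- and beta-tubulin genes (vertical axis, starting above 0) against the percent of counts in lncRNA genes (horizontal axis), with one numbered dot per library. The sum is lowest, 2801 and 2940 CPM, in the 2 libraries labelled knockout with the highest lncRNA shares, 2.77 and 2.97%, and highest, 3574 CPM, in wildtype library 1 at 1.99%.

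Unlike the tubulin sum and the lncRNA share, the summed levels of 2 marker lists did not overlap between the groups. These were the lists of the mesenchyme around the cochlea and of the Deiters cells within the organ of Corti. The level of 6 periotic mesenchyme markers was 5066 to 6087 CPM in the knockout-labelled libraries and 6167 to 7238 CPM in wildtype. That of 6 Deiters cell markers was 262 to 297 CPM and 313 to 342 CPM in the same order. A sum follows its highest genes. Of the single mesenchyme markers only Col1a2 had groups apart, at 1990 to 2449 CPM and 2460 to 3074 CPM in the same order, as in 1.62% of all tested genes with lower values. Tbx18 overlapped, at 333 to 366 CPM and 317 to 397 CPM. The 7 melanocyte and stria markers summed to 19.5 to 26.5 CPM in the knockout-labelled libraries and 23.7 to 95.2 CPM in wildtype, with Mlana at 0 in knockout-labelled library 4. No other marker was at 0 in any library, and the sums of 10 of the 12 marker lists overlapped between the groups. Among the Deiters cell markers, Prss23 was at 82.1 to 104.5 CPM in the knockout-labelled libraries and 108 to 124 CPM in wildtype. Prss23 and Fgfr3, which the pillar cell list shares, had groups that did not overlap. By edgeR, 0 of the 6 Deiters cell markers passed the adjusted threshold. At an unadjusted p under 0.05 by edgeR 3 of them were lower, where 2.78% of all tested genes were. So were 3 of 5 endothelium markers, 3 of 5 red cell markers and all 6 tested melanocyte and stria markers. Pillar cells had 2 of 5 such markers, greater epithelial ridge and periotic mesenchyme 2 of 6 each, dividing cells 1 of 6 and neurons 1 of 12. The glia, hair cell and macrophage lists had 0. At the same level 1 pillar cell and 1 neuron marker were higher, where 4.76% of all tested genes were. The part of these cell types and of the lncRNA share in the tubulin differences was not tested.

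The gamma-, delta- and epsilon-tubulins, which act at centrosomes and centrioles, were low and did not pass the test. Tube1, the epsilon-tubulin of centriole triplets, had 5.36, 5.68, 6.19 and 4.35 CPM in the libraries labelled knockout, against 4.66, 4.95, 3.51 and 4.51 CPM in wildtype. It had the highest log2 fold change of the members, 0.29 ± 0.15 (SE, 95% interval -0.04 to 0.62), and knockout-labelled library 4 lay below 3 of the 4 wildtype libraries. Its adjusted p was 0.647 by edgeR. Tubg1, the main gamma-tubulin that nucleates microtubules, was nearly level between the groups, at 20.1 to 23.3 CPM in the knockout-labelled libraries and 21.2 to 22.7 CPM in wildtype, and its interval ran from -0.16 to 0.13 on the log2 scale. Tubg2, the gamma-tubulin enriched in brain, ranged over 5.83 to 6.97 CPM and 6.70 to 7.87 CPM in the same order of groups, and Tubd1, the delta-tubulin, over 6.04 to 7.73 CPM and 6.21 to 7.77 CPM.

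Of the proteins that bind along the lattice, Map4 was the member with the smallest p. Map4 is the widely expressed relative of the neuronal proteins Map2 and tau, and it stabilises microtubules outside neurons. It had 349, 338, 346 and 371 CPM in the libraries labelled knockout, against 401, 374, 388 and 383 CPM in wildtype. Every library labelled knockout lay below every wildtype library, by a narrow margin between knockout-labelled library 4 and wildtype library 2. No other member had groups that did not overlap in either direction, where 2.07% of all tested genes had such groups with higher values and 1.62% with lower values. The log2 fold change was -0.14 ± 0.05 (SE, 95% interval -0.25 to -0.03), a change of -9.27% (95% interval -15.9 to -2.05%), and the adjusted p was 0.618 against an unadjusted p of 0.0169 by edgeR's quasi-likelihood test.

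Map2, the protein of dendrites, had 234, 215, 210.1 and 196 CPM in the libraries labelled knockout, against 213, 225, 207 and 206 CPM in wildtype. Its groups covered nearly the same range, and its log2 fold change of 0.01 ± 0.06 had a 95% interval from -0.12 to 0.14. Mapt, which encodes the axonal protein tau, had 81.7, 50.3, 70.0 and 46.4 CPM in the libraries labelled knockout, against 74.0, 84.2, 37.1 and 54.6 CPM in wildtype. Its mean was 62.1 ± 16.7 CPM in the libraries labelled knockout and 62.5 ± 20.9 CPM in wildtype (SD, n = 4 each), so the spread within a group was many times the difference between them. The 95% interval of its log2 fold change, -0.51 to 0.49, does not exclude changes within that range.

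Map1b, which is prominent in growing axons, ranged over 407 to 511 CPM in the knockout-labelled libraries and 347 to 577 CPM in wildtype (log2 fold change 0.03 ± 0.13 SE). Map1a, its relative in mature neurons, ranged over 81.4 to 104 CPM and 72.3 to 119.5 CPM in the same order (-0.07 ± 0.13). Map6, which makes microtubules resistant to cold, ranged over 14.5 to 19.1 CPM and 10.9 to 22.6 CPM (-0.06 ± 0.18). In all 3, the wildtype range enclosed that of the libraries labelled knockout. The remaining lattice proteins were narrow in both groups. Map7, which recruits kinesin-1 to microtubules, ranged over 37.8 to 45.1 CPM in the knockout-labelled libraries and 33.9 to 41.0 CPM in wildtype (0.11 ± 0.08), and Map7d1, its relative, had a log2 fold change of 0.02 ± 0.05. Map1s stood at -0.05 ± 0.06, and Map9, a protein of spindles and cilia, at -0.02 ± 0.09 on the same scale (SE).

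The doublecortin family binds between protofilaments and steers growing microtubules in young neurons. Dcx, doublecortin itself, had 80.4, 58.6, 65.6 and 52.9 CPM in the libraries labelled knockout, against 76.8, 88.7, 42.6 and 51.3 CPM in wildtype. As with Mapt, wildtype libraries 2 and 3 were the highest and the lowest of all 8, and the groups overlapped fully (log2 fold change -0.01 ± 0.20 SE, 95% interval -0.45 to 0.42). Dclk1, a doublecortin-like kinase, had 163, 146, 169 and 169 CPM in the libraries labelled knockout, against 197, 166, 179.7 and 158 CPM in wildtype. The other libraries overlapped, while knockout-labelled library 2 lay below the wildtype range and wildtype libraries 1 and 3 lay above that of the libraries labelled knockout. Its log2 fold change, -0.11 ± 0.07 (SE), did not pass, at an adjusted p of 0.688 by edgeR.

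Plus-end proteins had the lowest spread of the role groups, with a median within-group SD of log2 CPM of 0.08. Mapre3, the end-binding protein enriched in neurons, had the smallest p among them and had 24.5, 24.8, 24.3 and 22.7 CPM in the libraries labelled knockout, against 19.3, 25.1, 19.7 and 24.3 CPM in wildtype. The wildtype libraries 1 and 3 were low and the wildtype libraries 2 and 4 fell in with the other group (log2 fold change 0.12 ± 0.09 SE, 95% interval -0.08 to 0.32, adjusted p 0.710 by edgeR). Mapre1, the broadly expressed end-binding protein that recruits most others to growing tips, ranged over 179.8 to 214 CPM in the knockout-labelled libraries and 192 to 211 CPM in wildtype (-0.07 ± 0.06). Mapre2 had a log2 fold change of -0.03 ± 0.05, the rescue factors Clasp1 and Clasp2 stood at -0.0034 ± 0.05 and 0.02 ± 0.06, and the linker Clip1 at 0.01 ± 0.05 (SE). The 95% intervals of all 6 lay within 0.5 of 0 on the log2 scale.

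Minus-end proteins of the Camsap family cap and stabilise microtubules that are not held by a centrosome, the usual arrangement in epithelial cells. Camsap2 had 138, 141, 136 and 140.0 CPM in the libraries labelled knockout, against 146, 147, 141 and 133 CPM in wildtype. The spread over all 8 libraries was small, with a highest value 1.10 times the lowest, and the log2 fold change was -0.03 ± 0.05 (SE, adjusted p 0.857 by edgeR). Camsap1 and Camsap3 stood at 0.03 ± 0.07 and 0.02 ± 0.06, and 14.3% of the 50-base stretches of Camsap1 occur in other genes.

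Counted over the list, 0 of 37 members passed an adjusted p of 0.05 by edgeR's quasi-likelihood test, where 0.0923% of all tested genes did in either direction, 0.0340% higher and 0.0583% lower. At an unadjusted p under 0.05 there were 0 higher members, where 4.76% of all tested genes were higher, and 2 lower members, Map4 and Tubb4b, where 2.78% were lower. DESeq2 called 0 members, with 0.403% of all tested genes called. Of the 36 members with an adjusted p in the authors' deposited table, 0 were under 0.05, where 0.450% of all genes with one were, and the lowest adjusted p of a member there was 0.369. The log2 fold changes in the authors' deposited table had the sign of the edgeR ones for all 37 members. Which group was the numerator in that table was inferred here from its signs, so the match cannot test the direction. Both fits also rest on the same libraries, so the match is not an independent check.

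Of the 37 members, 27 had a log2 fold change below 0, with a median of -0.05, and beyond the 12 alpha- and beta-tubulins the 25 others split into 15 below and 10 above 0, with a median of -0.01. The interval bounds what could have been missed. For 33 of the 37 members the 95% interval of the log2 fold change lay within 0.5 of 0, where 61.9% of all tested genes had such an interval. The exceptions were Tuba8, which was low, Tube1, which was low and had the highest log2 fold change of the members, 0.29, and Tubb3 and Mapt, which varied between libraries of 1 group.

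**Figure D4:**
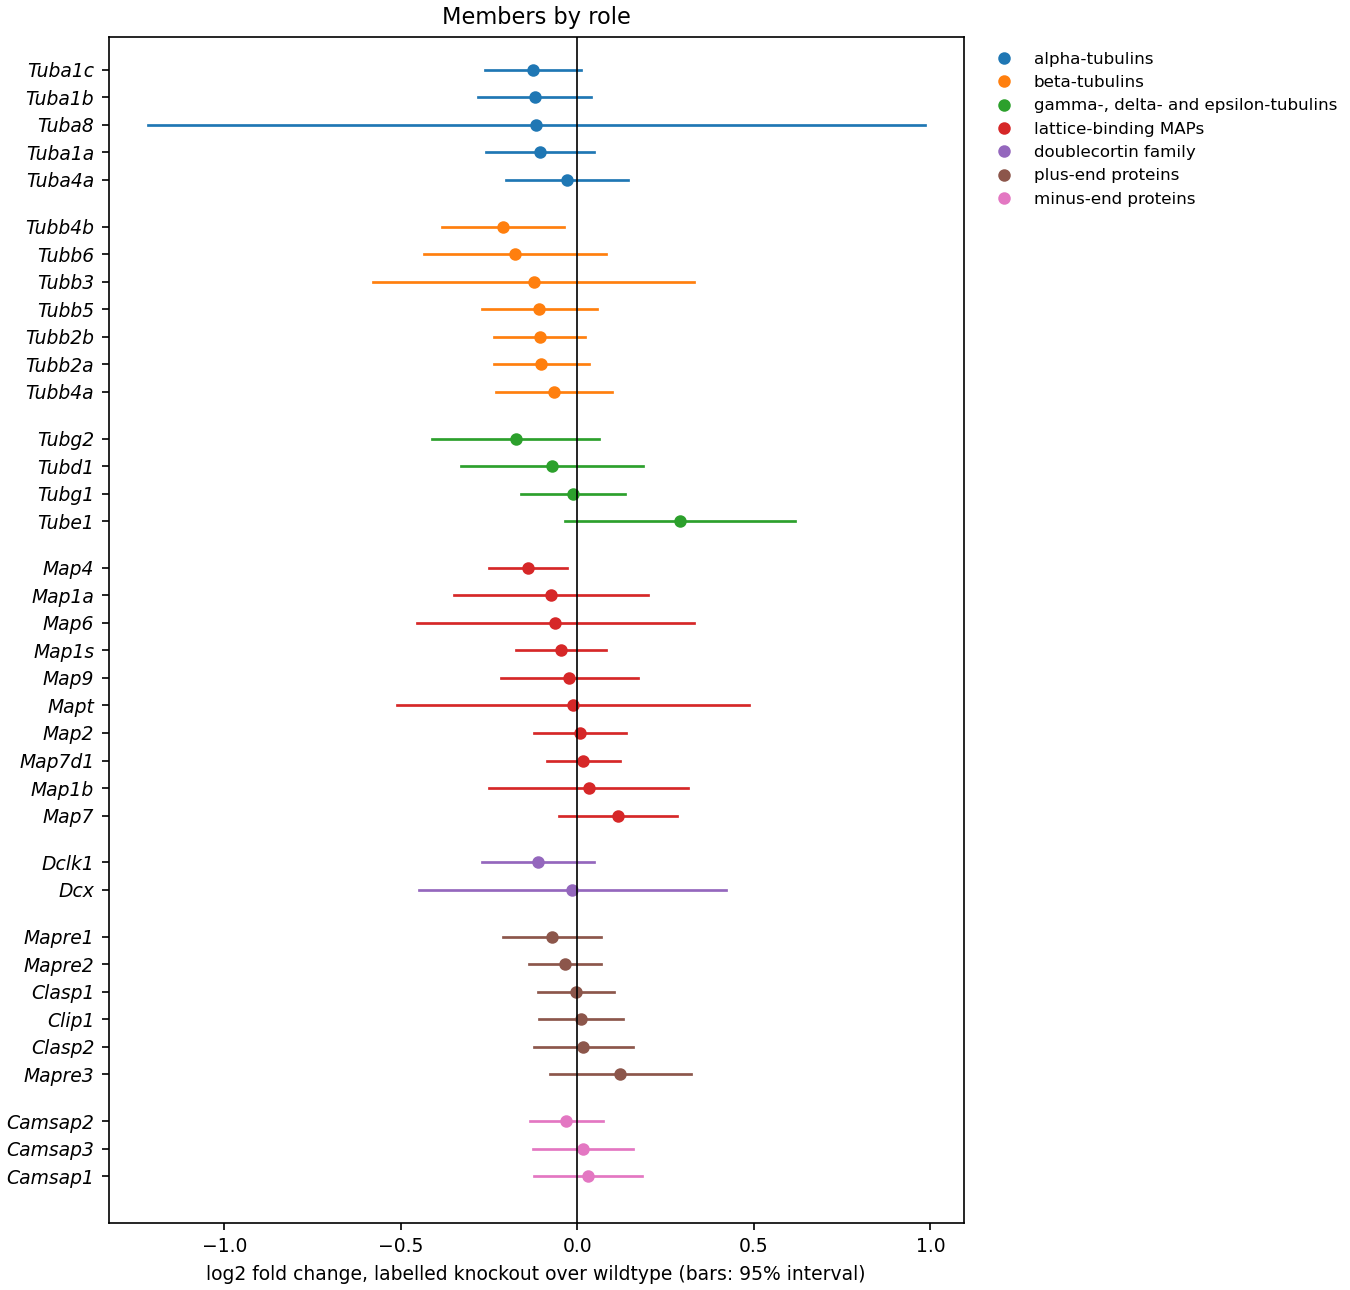
Log2 fold change of the libraries labelled knockout over wildtype for each of the 37 members, sorted within its role, with 95% intervals from edgeR's quasi-likelihood fit. Only Tubb4b and Map4 have intervals that end below 0, no interval starts above 0, all 12 alpha- and beta-tubulins lie left of 0, and no member passed the test after adjustment over all genes.

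The members differed in how much they varied between libraries of the same genotype. Of the 36 members with a mean of at least 1 CPM, 26 had a within-group SD of log2 CPM under 0.15, where the median of all tested genes was 0.155. The tested genes include some under 1 CPM, so these sets were not matched for level. The widest of the 36 members were Mapt at 0.46, Tubb3 at 0.41, Dcx at 0.39 and Map6 at 0.35, followed by Map1a at 0.25 and Map1b at 0.24. All 6 were highest in wildtype library 2 and lowest in wildtype library 3, with ratios between these libraries from 1.65 for Map1a to 2.27 for Mapt. Map2, also a neuronal protein, did not share this spread, with an SD of 0.09 and a highest value 1.20 times the lowest.

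Neuron markers outside the microtubule genes followed this order of libraries only in part. Of 12 such markers, 10 were higher in wildtype library 2 than in wildtype library 3, as were 24 of the 36 members with a mean of at least 1 CPM. Wildtype library 3 was the lowest of all 8 libraries for 7 markers. In knockout-labelled library 1, 9 were higher than in knockout-labelled library 4, while Nefh, Syt1 and Rbfox3 were lower. Elavl3, an RNA-binding protein of neurons, had 28.5, 17.9, 22.2 and 15.3 CPM in the libraries labelled knockout, against 23.8, 25.9, 12.3 and 18.9 CPM in wildtype. This order was much like that of Mapt, but with knockout-labelled library 1 highest. Syt1 and Scg2, both of secretory vesicles, were instead higher in wildtype library 3 than in wildtype library 2. The summed level of the 12 was 463 to 554 CPM in the knockout-labelled libraries and 428 to 552 CPM in wildtype, with no marker at 0, so the groups covered nearly the same range. Syt1, with means of 154 and 152 CPM in the same order, and Isl1, with 119 and 106 CPM, were the highest of the 12. They also had the lowest within-group SDs of log2 CPM, 0.12 and 0.10, where the median of the 12 was 0.35. The sum therefore says little about the spread of the other markers. The part of neuron content in the spread of Mapt, Tubb3, Dcx and Map6 was not tested.

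**Figure D5:**
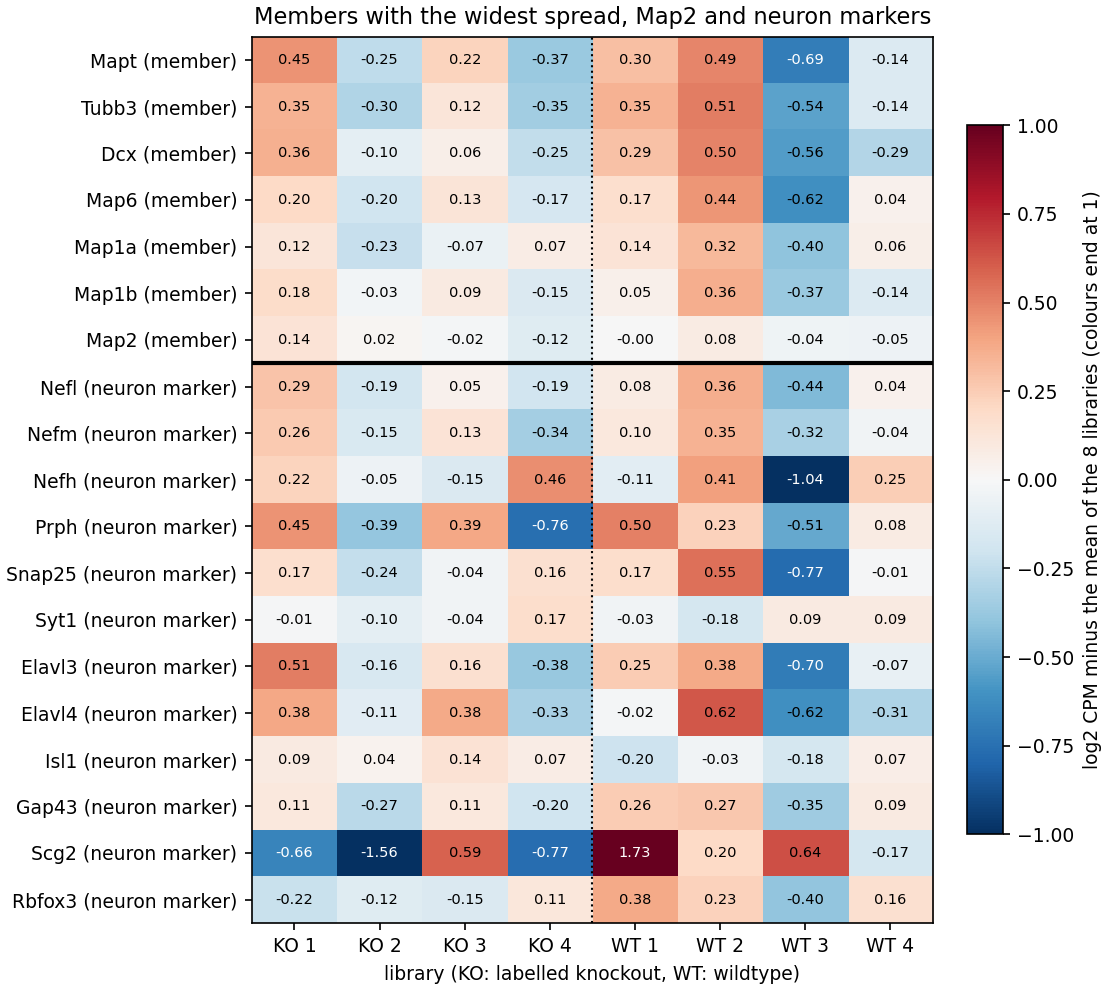
Log2 CPM minus the mean of the 8 libraries, as colours and numbers, for the 6 members with the widest within-group spread among those above 1 CPM and Map2 (above the line) and for 12 neuron markers (under it), with the 4 libraries labelled knockout left of the 4 wildtype ones. Mapt, Tubb3, Dcx, Map6, Map1a and Map1b are highest in wildtype library 2 and lowest in wildtype library 3, Map2 stays within 0.14 of its mean, and most neuron markers are also low in wildtype library 3.

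The enzymes and partners that act on the same polymer were counted in the same way. Of 61 other microtubule genes, chosen by function, 0 passed the adjusted threshold by edgeR, DESeq2 or limma-voom, where 0.0923% of all tested genes did by edgeR. At an unadjusted p under 0.05 by edgeR, 0 were higher and 1 was lower, where 4.76% and 2.78% of all tested genes were. That gene was Vash1, the enzyme that removes the terminal tyrosine of alpha-tubulin, at 69.7, 68.2, 66.2 and 65.9 CPM in the libraries labelled knockout, against 76.9, 72.5, 75.7 and 72.1 CPM in wildtype, with groups that did not overlap, as in 1.62% of all tested genes with lower values (log2 fold change -0.14 ± 0.05 SE, 95% interval -0.24 to -0.04, adjusted p 0.590 by edgeR). Of the 61, 33 had a log2 fold change below 0, with a median of -0.02. The smallest p in the other subgroups belonged to Kif2c, a depolymerising kinesin, at -0.28 ± 0.14, the folding cofactor Tbce at 0.16 ± 0.08, the doublecortin-like kinase Dclk2 at 0.12 ± 0.07 and the gamma-tubulin ring partner Mzt2 at -0.10 ± 0.09 on the log2 scale (SE), and none of these passed.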

How the data were processed

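Per the labels' protocols, total RNA was extracted with RNeasy and, after removal of ribosomal RNA, turned into NEBNext Ultra II libraries. HISAT2 2.2.1, featureCounts, cutadapt 4.3, FastQC 0.12.1, DESeq2 and GRCm39 appear in the submitters' processing notes. Which annotation and strand setting were used, and what was done with reads of several positions, is not given in the sources used here. For every library the authors deposited unnormalized read counts by gene, and beside them group means and SDs and a mean of normalized counts, as a signal. They also deposited a comparison with a log2 fold change, a test score and p-values per gene, whose direction is not stated in the file.

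Of 41079 genes, 8065 had no count, and 20581 passed edgeR's filterByExpr (minimum count 10). Libraries were scaled by TMM, which the CPM values use, and genotype was tested on the counts by the quasi-likelihood method of edgeR 4.0.16 in R 4.3.3, with Benjamini-Hochberg adjustment over all tested genes and a threshold of 0.05. The SE is that of the log2 fold change, and intervals are at 95%. Alternatives were DESeq2 1.42.0 and limma-voom (limma 3.58.1), other scalings and filters, an adjusted p threshold of 0.1, the replicate number as a block, the lncRNA share as a covariate and libraries left out. The tests were tried on simulated data. The lncRNA share used RefSeq gene types, with 90.0% of symbols matched. Lengths, shared 50-base stretches and coding sequences came from GENCODE M21 on GRCm38, and no coordinates were carried between builds.

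Replicates differed by more than counting noise, with a chi-square of at least 10.7 per degree of freedom in every pair. Members and gene lists were chosen with earlier results of these data known. Per-library values are given for the 3 alpha- and 4 beta-tubulins with the highest mean CPM, for Tubb3, Mapt, Dcx and Map2, and for the smallest p in each role group, and ranges, fold changes or counts for the others. Elavl3, Hey2, Fgfr3, Prss23, Col1a2 and Tbx18 were chosen after their values were seen.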

Additional observations from a re-analysis of the deposited data

Results flagged for a closer look

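Among the 82 groups of 4 libraries examined for a library far from the others, 1 stood apart. Chance alone flags about 1 in 20 such groups, so 1 of 82 is below that rate. Map7, which recruits kinesin-1 to microtubules, was highest in knockout-labelled library 3, at 45.14 CPM, and the other 3 libraries labelled knockout had 37.84, 38.68 and 38.83 CPM. The gap to the nearest library was 0.863 of the group's range, above Dixon's 95% critical value for 4 samples.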

How the results depend on the processing

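The count of members past the threshold stayed at 0 in both directions in all 18 alternatives run, and the lowest adjusted p of a member under any of them was 0.124, for Tubb4b. Of 628 recalculated log2 fold changes of members, 563 kept their direction and 65 reversed, none of which passed a test, and the cause of the reversals was not tested. Of the 12 alpha- and beta-tubulins, 9 kept their direction in every alternative. Tuba8 did not pass the filter of 50 counts and has no value there.

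Over all genes, 7 were called higher and 12 lower. With no filter these were 12 and 24, with DESeq2 35 and 48, without wildtype libraries 1 and 3 together 2 and 7, and with 1 library left out 2 to 7 and 8 to 20. With the lncRNA share as a covariate 11 were called higher. With the replicate number as a block, 3 were called higher, and no member was called. Same-numbered libraries had correlations of their deviations of -0.275 to 0.214, and 2 of the 4 libraries labelled knockout were closest to their own number. These few values cannot tell whether the numbers pair the samples.

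Values that turned sign, as log2 fold changes, were the following. With the lncRNA share as a covariate, Tuba4a was 0.027, Tubg1 0.034, Mapre1 0.016, Map1b -0.12, Map2 -0.032, Map7d1 -0.0027, Clasp2 -0.068, Clip1 -0.034 and Camsap1 -0.057. Without wildtype libraries 1 and 3 together, Tuba4a was 0.037, Dclk1 0.0014, Map1b -0.10, Map2 -0.012, Mapre3 -0.039, Clasp2 -0.058 and Camsap1 -0.068. With upper quartile scaling, which moved the median of all genes by 0.015, Tubg1 was 0.0018, Mapt 0.0036, Dcx 0.0013 and Clasp1 0.012. With the filter of 50 counts, Tubg1 was 0.00018 and Clasp1 0.0095. With limma-voom, Tuba8 was 0.067, Mapt 0.0065 and Dcx 0.021, and with the replicate number as a block Mapt was 0.014 and Dcx 0.030.

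With 1 library left out at a time, the ranges that crossed 0 were Tuba4a -0.082 to 0.013, Tuba8 -0.48 to 0.19, Tubb3 -0.29 to 0.045, Tubg1 -0.049 to 0.021, Map1a -0.20 to 0.027, Map1b -0.074 to 0.17, Map2 -0.039 to 0.046, Map6 -0.23 to 0.094, Map9 -0.097 to 0.042, Mapt -0.20 to 0.17, Dcx -0.17 to 0.17, Clasp1 -0.022 to 0.021, Clasp2 -0.036 to 0.064, Clip1 -0.031 to 0.035, Camsap1 -0.011 to 0.095 and Camsap3 -0.024 to 0.046. Low counts limit Tuba8 and, less so, Tube1, and the spread between libraries limits Tubb3 and Mapt.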
